A study of Mus musculus with 10 samples.

Results

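Antigen presentation by the major histocompatibility complex (MHC) was examined in the livers of leptin receptor-deficient, diabetic *db/db* mice aged 10 weeks, which had been infected 5 weeks earlier with an adeno-associated virus of serotype 8 (AAV8) given into the tail vein. A group of 5 livers infected with AAV8 encoding eGFP (AAV8-Control) was compared with 5 livers infected with AAV8 encoding another protein (AAV8-Transgene). All 10 libraries therefore carry the *db/db* genotype and an AAV8 infection, no uninfected or lean liver is among them, and the promoter that drives the vector is not given in the sources used here. The members are 10 genes taken by name from the 15126 genes of the deposited table, which gives levels in CPM, the reads of a gene per 1000000 reads that a library had on genes. They are the class I heavy chains *H2-K1*, *H2-D1* and *H2-Q10*, the light chain *B2m*, the peptide transporter genes *Tap1* and *Tap2*, and the class II genes *H2-Aa*, *H2-Ab1*, *H2-Eb1* and *Cd74*. All 10 were detected in every library, with between 163 and 68478 reads per gene and library.

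Class I molecules sit on almost every nucleated cell and show peptides of proteins made inside that cell to CD8 T cells. The TAP transporter moves those peptides into the endoplasmic reticulum, where a heavy chain folds with β2-microglobulin around them. Class II molecules are paired α and β chains found mainly on dendritic cells, B cells and macrophages, and they show peptides of engulfed proteins to CD4 T cells, with the invariant chain encoded by *Cd74* escorting the pair to the endosome. In liver, hepatocytes make class I and the secreted heavy chain encoded by *H2-Q10*, whereas class II is mostly a product of the Kupffer cells and other immune cells of the sinusoids. Interferon-γ raises both classes.

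The promoters of several members hold short elements known from the control of MHC genes, and the stretches that hold them are shown here. Whether they have a part in the levels reported below was not tested. They were read from RefSeq promoter windows of 250 bases before to 50 bases after each start on GRCm38.p6, in which 7 of the 10 members matched an entry. Each stretch is printed 5′ to 3′ on the gene's own strand and stops before the start, with matches in capitals.

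*H2-K1*, chr17:34000348-34000472, reverse strand: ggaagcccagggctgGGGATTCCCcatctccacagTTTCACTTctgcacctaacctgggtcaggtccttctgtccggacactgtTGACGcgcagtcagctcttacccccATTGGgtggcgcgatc
*H2-D1*, chr17:35262909-35263060, forward strand: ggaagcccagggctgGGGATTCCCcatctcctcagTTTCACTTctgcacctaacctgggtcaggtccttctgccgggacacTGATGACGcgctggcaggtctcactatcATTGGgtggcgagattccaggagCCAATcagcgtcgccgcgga
*H2-Q10*, chr17:35469919-35470048, forward strand: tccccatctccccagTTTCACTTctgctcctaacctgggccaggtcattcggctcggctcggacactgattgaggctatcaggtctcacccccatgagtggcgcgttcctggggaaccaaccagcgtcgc
*B2m*, chr2:122147535-122147653, forward strand: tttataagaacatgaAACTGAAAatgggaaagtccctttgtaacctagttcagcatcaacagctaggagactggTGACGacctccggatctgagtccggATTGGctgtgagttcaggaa
*H2-Aa*, chr17:34287852-34288051, reverse strand: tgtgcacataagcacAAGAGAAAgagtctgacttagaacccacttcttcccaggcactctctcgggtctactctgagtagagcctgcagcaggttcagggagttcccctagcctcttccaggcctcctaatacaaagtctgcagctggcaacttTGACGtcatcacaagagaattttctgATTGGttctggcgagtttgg
*H2-Eb1*, chr17:34305766-34305851, forward strand: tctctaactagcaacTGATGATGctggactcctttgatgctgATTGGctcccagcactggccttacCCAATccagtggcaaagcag

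The motifs were searched on both strands, and they were chosen after these sequences had been read. The κB site GGGATTCCC, bound by NF-κB, was found in the windows of *H2-K1* and *H2-D1* and in 0.353% of all 32851 promoter windows. The core of the interferon site, TTTCNNTT, was found in *H2-K1*, *H2-D1*, *H2-Q10*, *B2m* and *H2-Aa*, and 23.9% of all windows hold it. The Y box ATTGG, bound by NF-Y, is held by 37.4% of all windows. An X2 core TGANG followed on the same strand by a Y box, with 15 to 25 bases between them, is the spacing of the X and Y elements that the class II transactivator CIITA and its class I counterpart NLRC5 act through. That pair was found in *H2-K1*, *H2-D1*, *B2m*, *H2-Aa* and *H2-Eb1*, with 19 to 23 bases between its parts, and in 2.79% of all windows. Neither the *H2-Q10* nor the *Tap1* window held it with these letters. *H2-K1* and *H2-D1* hold the κB site, the interferon core, the X2 core and the Y box in the same order, and 2 overlapping X2 cores stand before the Y box in *H2-D1* and in *H2-Eb1*. The X2 core alone is held by 89.4% of all windows. A match is a description of these letters and not a measured binding site.

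**Figure D1:**
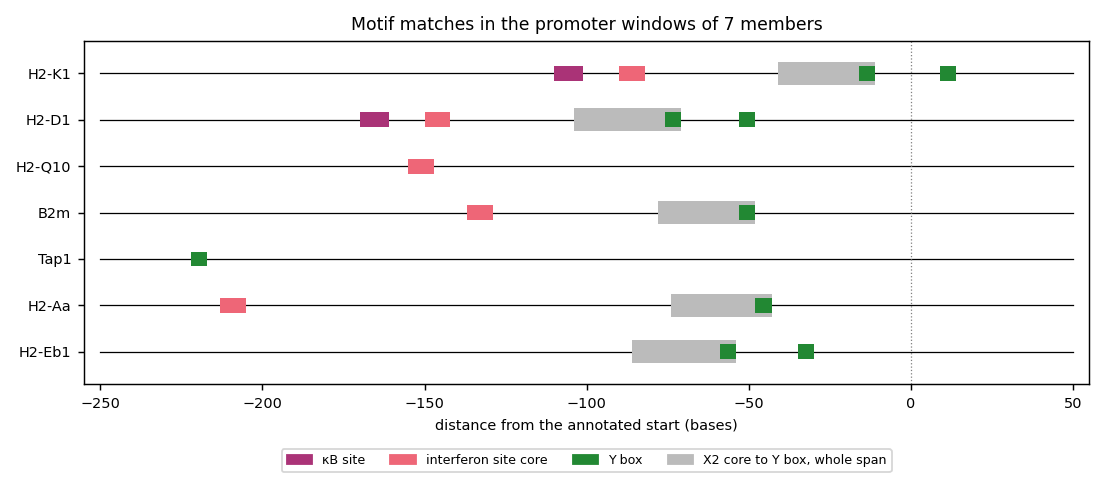
Position of the motif matches in the promoter windows of the 7 members with a RefSeq entry, as distance from the annotated start in bases on the gene's own strand. The grey span from X2 core to Y box is present in *H2-K1*, *H2-D1*, *B2m*, *H2-Aa* and *H2-Eb1* and is not found in the windows of *H2-Q10* and *Tap1*.

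Libraries held 19499795 to 35498596 reads counted on genes in AAV8-Control and 21656201 to 26124038 in AAV8-Transgene. A single read was therefore worth 0.0282 to 0.0513 CPM, and the fewest reads of a member were the 163 to 307 of *Tap2*. Hepatocyte markers were abundant, as in liver, with *Alb* at 97164 CPM on average in AAV8-Control. Livers 2 and 4 of AAV8-Control stood apart from the other 8 in the class II genes, and values without both are given for the class II genes and for part of the other genes and lists. They were picked for those high class II values. For any gene high in both, a less negative difference without them was therefore fixed in advance and tests nothing.

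Per kilobase of exon, the light chain was the most abundant of these transcripts. *B2m*, which encodes β2-microglobulin, averaged 2432 ± 372 CPM per kilobase in AAV8-Control (SD, n = 5). That was 2.78 times the sum of the 3 heavy chains on the same scale, and 2.65 times in AAV8-Transgene. *H2-Q10* followed at 434 ± 43.6 CPM per kilobase, *H2-K1* at 308 ± 33.0 and *H2-D1* at 134 ± 18.9, each step larger than the SDs beside it. *Cd74* was far lower at 46.6 ± 24.0 CPM per kilobase, and this was 5.23 times the mean of the 3 class II chains. *H2-Eb1*, *H2-Ab1* and *H2-Aa* averaged 9.86 ± 6.704, 9.78 ± 5.78 and 7.06 ± 4.24 CPM per kilobase, with SDs that reflect a spread between livers which the 3 genes share. Within a liver, *H2-Aa* was the lowest of the 3 in 10 of 10 livers, whereas *H2-Eb1* was above *H2-Ab1* in 3 of 10. *Tap1* at 3.28 ± 0.902 and *Tap2* at 2.39 ± 0.339 were the lowest members, and *Tap1* was the higher of the pair in 7 of 10 livers. The lengths are those of merged GENCODE exons on GRCm38, and they include exon parts that hepatic transcripts may not use.

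Every member had a lower mean in AAV8-Transgene than in AAV8-Control, and none passed the test across all genes. The means in CPM were 3.07% to 12.9% lower for the heavy chains and *B2m*, 26.6% lower for *Tap1*, 4.88% lower for *Tap2*, and 37.1% to 45.5% lower for the 4 class II genes. With limma on log2(CPM + 1) and Benjamini-Hochberg adjustment over 11027 genes, 0 of the 10 members had an adjusted p under 0.05, against 0.0181% of all genes tested. At an unadjusted p under 0.05, 1 member was lower, *Tap1*, where 2.97% of all genes were. With edgeR 5 members reached that unadjusted level, with DESeq2 4, and with a block for replicate number in limma 5. No adjusted p that these settings gave was under 0.05. DESeq2 gave none for 5 members, *Tap1*, *Tap2*, *H2-Aa*, *H2-Ab1* and *H2-Eb1*. The number of members at an unadjusted p under 0.05 with limma was 0 without AAV8-Control liver 2, AAV8-Transgene liver 3 or AAV8-Transgene liver 5, 4 without AAV8-Control liver 3 and 5 without AAV8-Control liver 5. The share of all genes at that level is not given for these alternative settings, so their counts have no background beside them. In 0 of 10 members did the groups separate completely, where 0.435% of all genes were lower without overlap. A lower mean was found in 44.1% of all genes, and in 10 of 10 members. The members' levels are not independent of each other, and they were read from the same 10 livers. The median log2 fold change was -0.30 over the 10 members, -0.59 over the 4 class II genes and -0.15 over the other 6, beside 0.02 over all genes tested. Without AAV8-Control livers 2 and 4, the median of the class II genes was -0.07. The direction of that shift was fixed in advance, since these livers were left out for their high class II values. In whole liver, fewer cells of a type and less RNA per cell cannot be told apart.

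**Figure D2:**
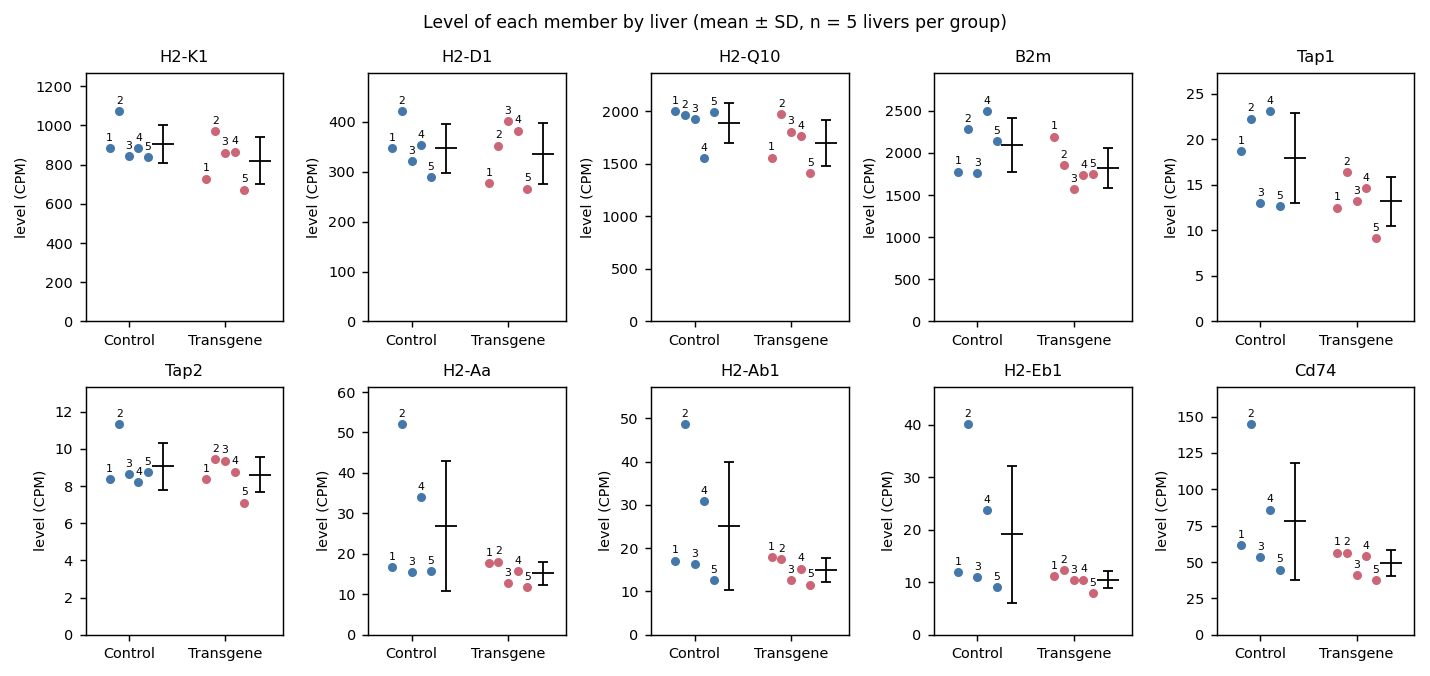
Level of each of the 10 members in CPM, with a point for each liver labelled by its replicate number and the mean ± SD of 5 livers beside the points. The groups overlap in every panel, and in the 4 class II panels AAV8-Control livers 2 and 4 lie above all of the other 8 livers.

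*H2-K1*, a classical heavy chain on chromosome 17 (GRCm38, 33996017 to 34000347, reverse strand), was at 884, 1072, 841, 884 and 836 CPM in AAV8-Control livers 1 to 5. In AAV8-Transgene livers 1 to 5 it was at 728, 970, 861, 866 and 672 CPM. AAV8-Transgene livers 1 and 5 lay below every control, AAV8-Control liver 2 above every AAV8-Transgene liver, and the others overlapped. On the log2 scale *H2-K1* differed by -0.15 (standard error 0.107, 95% interval -0.38 to 0.08), with a limma adjusted p of 0.668.

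*H2-D1*, the second classical heavy chain (chromosome 17, 35262730 to 35267499, forward strand), was at 347, 421, 321, 354 and 290 CPM in AAV8-Control. It was at 277, 352, 402, 382 and 266 CPM in AAV8-Transgene. The highest value of either group belonged to AAV8-Control liver 2 and the lowest to AAV8-Transgene liver 5, with nearly complete overlap between them. Its log2 fold change was -0.05 (standard error 0.129, limma adjusted p = 0.903), and it took a positive sign when AAV8-Control liver 2 (0.019), AAV8-Transgene liver 1 (0.010) or AAV8-Transgene liver 5 (0.025) was left out. *H2-K1* and *H2-D1* kept a ratio of 2.14 to 2.89 in CPM over the 10 livers.

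*H2-Q10*, a non-classical heavy chain made chiefly by hepatocytes and secreted into serum (chromosome 17, 35470089 to 35474563, forward strand), was at 2001, 1964, 1922, 1551 and 1992 CPM in AAV8-Control. In AAV8-Transgene it was at 1559, 1970, 1806, 1761 and 1408 CPM. AAV8-Control livers 1 and 5 lay above every AAV8-Transgene liver, and AAV8-Control liver 4 lay below 4 of the 5 AAV8-Transgene livers. For *H2-Q10* the log2 fold change was -0.15 (standard error 0.107, limma adjusted p = 0.656), and without AAV8-Control livers 2 and 4 it was -0.22 (adjusted p = 0.868). *H2-Q10* was thus not high in the livers with high class II, with 1964 CPM in liver 2 inside the range of the other controls and the lowest control value in liver 4.

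*B2m*, the light chain shared by all class I molecules (chromosome 2, 122147686 to 122153083, forward strand), was at 1777, 2283, 1763, 2496 and 2137 CPM in AAV8-Control. It was at 2193, 1857, 1569, 1739 and 1745 CPM in AAV8-Transgene. AAV8-Control livers 2 and 4 lay above every AAV8-Transgene liver, and 3 AAV8-Transgene livers lay below every control. Between the groups *B2m* had a log2 fold change of -0.20 (standard error 0.119, limma adjusted p = 0.633), and without those 2 control livers it was -0.06.

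*Tap1* and *Tap2* encode the subunits of the peptide transporter. *Tap1* (chromosome 17, 34187553 to 34197225, forward strand) was at 18.7, 22.2, 13.0, 23.1 and 12.7 CPM in AAV8-Control and at 12.5, 16.3, 13.2, 14.6 and 9.17 CPM in AAV8-Transgene. AAV8-Control livers 1, 2 and 4 lay above every AAV8-Transgene liver, whereas livers 3 and 5 lay within their range. *Tap1* had a log2 fold change of -0.40 (standard error 0.182, 95% interval -0.79 to -0.01), with an unadjusted limma p of 0.0471, an adjusted p of 0.617 and a two-sided exact permutation p of 0.119. Without AAV8-Control livers 2 and 4 it was -0.16 (adjusted p = 0.890).

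*Tap2* (chromosome 17, 34203527 to 34216321, forward strand) was at 8.36, 11.3, 8.65, 8.20 and 8.75 CPM in AAV8-Control. It was at 8.36, 9.45, 9.37, 8.77 and 7.10 CPM in AAV8-Transgene. AAV8-Control liver 2 was the highest of the 10 and AAV8-Transgene liver 5 the lowest, and AAV8-Transgene livers 2, 3 and 4 lay above the other 4 controls. Its log2 fold change was -0.06 (standard error 0.101, limma adjusted p = 0.848) and 0.013 without AAV8-Control liver 2. The ratio of *Tap1* to *Tap2* in CPM ran from 1.29 to 2.81, the widest of the ratios computed between members.

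*H2-Aa*, the α chain of H2-A (chromosome 17, 34282744 to 34287823, reverse strand), was at 16.8, 52.0, 15.6, 34.0 and 15.7 CPM in AAV8-Control. It was at 17.7, 18.1, 12.8, 15.7 and 11.8 CPM in AAV8-Transgene. Livers 2 and 4 of AAV8-Control stood clear of the rest, and the remaining 8 livers of both groups lay within 11.8 to 18.1 CPM. Between the groups *H2-Aa* differed by -0.62 on the log2 scale (standard error 0.292, 95% interval -1.26 to 0.01, limma adjusted p = 0.617).

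*H2-Ab1*, the β chain of H2-A (chromosome 17, 34257689 to 34269419, forward strand), was at 17.1, 48.6, 16.3, 30.9 and 12.7 CPM in AAV8-Control and at 18.0, 17.4, 12.6, 15.3 and 11.6 CPM in AAV8-Transgene. The same livers, 2 and 4 of AAV8-Control, were highest. For *H2-Ab1* the log2 fold change was -0.56 (standard error 0.291, limma adjusted p = 0.625).

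*H2-Eb1*, the β chain of H2-E (chromosome 17, 34305867 to 34316674, forward strand), was at 12.0, 40.1, 10.9, 23.8 and 9.04 CPM in AAV8-Control and at 11.2, 12.2, 10.4, 10.5 and 7.93 CPM in AAV8-Transgene. Its highest and lowest livers differed by 5.05-fold in CPM, the widest range of any member. Between the groups it had a log2 fold change of -0.61 (standard error 0.317, limma adjusted p = 0.625).

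*Cd74*, the invariant chain (chromosome 18, 60803848 to 60812652, forward strand), was at 61.6, 144.6, 53.6, 86.1 and 44.9 CPM in AAV8-Control and at 56.4, 56.5, 40.9, 54.3 and 37.7 CPM in AAV8-Transgene. AAV8-Control liver 1 also lay above every AAV8-Transgene liver, by less than livers 2 and 4 did. Its log2 fold change was -0.55 (standard error 0.258, 95% interval -1.11 to 0.01, limma adjusted p = 0.617). With a block for replicate number, which no label says pairs the livers, its interval was -0.89 to -0.21 (limma adjusted p = 0.382).

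The 4 class II genes moved together from liver to liver. *H2-Aa* ranged 4.42-fold over the 10 livers, while its CPM ratio to *H2-Ab1* stayed between 0.955 and 1.24, its ratio to *H2-Eb1* between 1.23 and 1.74, and the ratio of *Cd74* to *H2-Aa* between 2.53 and 3.68. The lowest ratio of *Cd74* to *H2-Aa* was that of AAV8-Control liver 4. Leaving out AAV8-Control livers 2 and 4, the 8 livers of both groups spanned 1.54- to 1.63-fold in these genes. Their log2 fold changes were then -0.09 for *H2-Aa* (95% interval -0.39 to 0.22), -0.04 for *H2-Ab1*, -0.03 for *H2-Eb1* and -0.12 for *Cd74* (95% interval -0.46 to 0.22). The intervals still span changes of either sign. Within groups the class II genes were among the most variable of all, with more spread on the log2 scale than 98.5% to 99.3% of genes tested. For the other members that share was 94.4% for *Tap1*, 81.3% for *H2-D1*, 70.4% for *B2m*, 62.5% for *H2-K1*, 58.5% for *H2-Q10* and 51.8% for *Tap2*.

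**Figure D3:**
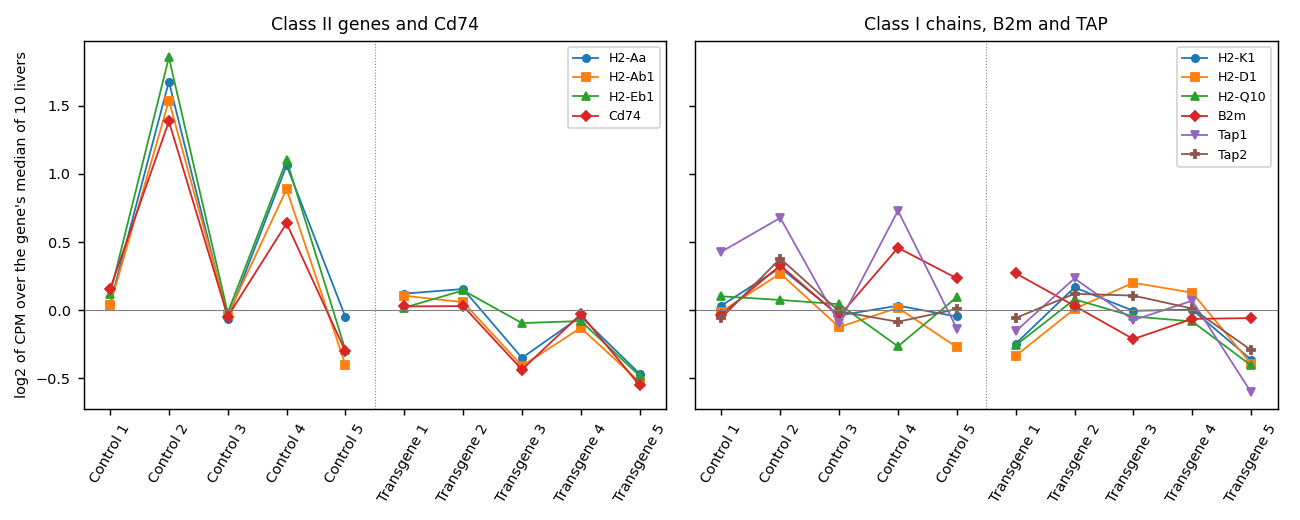
Log2 of each member's CPM over its own median of the 10 livers, for the class II genes at left and the other members at right, along AAV8-Control livers 1 to 5 and AAV8-Transgene livers 1 to 5. The class II genes peak together in AAV8-Control livers 2 and 4, *B2m* and *Tap1* are also highest in those 2 livers, and *H2-K1*, *H2-D1*, *H2-Q10* and *Tap2* are not high in both.

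**Figure D4:**
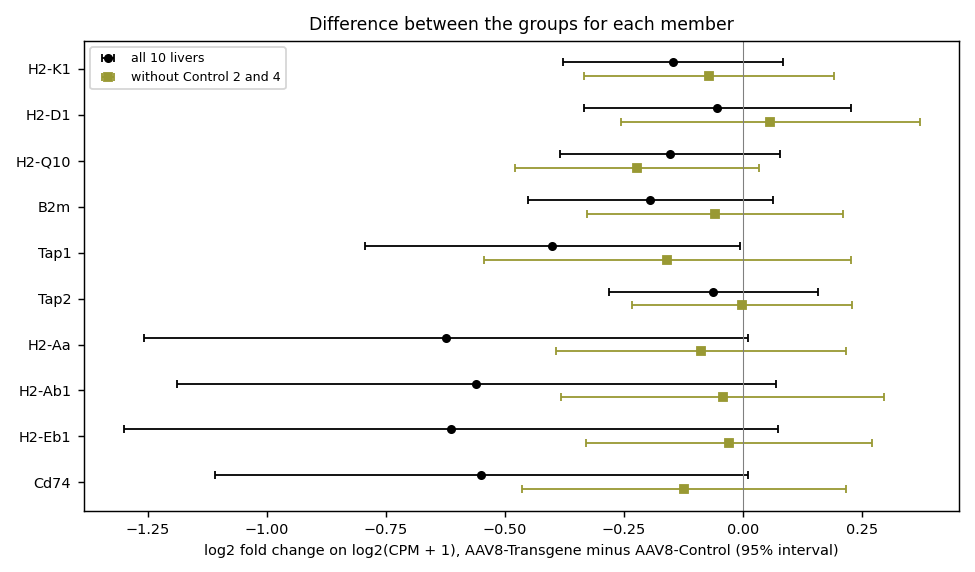
Log2 fold change of each member on log2(CPM + 1), AAV8-Transgene minus AAV8-Control, with its 95% interval, from all 10 livers (circles) and without AAV8-Control livers 2 and 4 (squares). With all livers and no replicate block the interval of *Tap1* alone lies below 0, and without the 2 control livers every interval spans 0. These 2 livers were left out for their high class II values, so less negative class II differences without them were fixed in advance.

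No other listed gene of the class I pathway had an adjusted p under 0.05. Of the 26 other class I heavy chain genes listed, 12 are in the table and 8 were tested, and all 8 had a lower mean in AAV8-Transgene. Of these, 2 had an unadjusted p under 0.05, where 2.97% of all genes tested were lower at that level, and the median log2 fold change of the 8 was -0.18. Without AAV8-Control livers 2 and 4, 4 of these 8 were lower, 1 of them at an unadjusted p under 0.05, and 4 higher, with a median of -0.03. *H2-M3*, which presents formylated peptides of bacteria and mitochondria, averaged 1.65 ± 0.187 CPM in the control livers against 1.24 ± 0.129 CPM in AAV8-Transgene (SD, n = 5 each, as for the values that follow). Its groups did not overlap, where 0.435% of all genes tested were lower without overlap, its two-sided exact permutation p was 0.00794, the smallest that 5 against 5 allows, and its limma adjusted p was 0.617. The level rests on 25 to 49 reads per liver. *H2-Q1* was at 21.8 ± 4.92 and 15.96 ± 4.07 CPM (log2 fold change -0.43, adjusted p = 0.617), and it stayed lower without those 2 control livers (-0.61, adjusted p = 0.868). *H2-T23*, which encodes Qa-1, was at 61.4 ± 6.61 and 59.4 ± 7.39 CPM. Of 8 class I-like genes tested 6 were lower, with 1 at an unadjusted p under 0.05 (2.97% of all genes), *Procr*, the protein C receptor of endothelium, at 1.21 ± 0.230 and 0.870 ± 0.115 CPM. Without the 2 control livers 7 were tested, *Procr* not among them, with 5 lower, 2 higher and 0 at that level. The list of peptide supply and loading holds 16 genes, *B2m*, *Tap1* and *Tap2* included. Of these, 12 had a lower and 4 a higher mean, or 9 and 7 without the 2 control livers, and *Tap1* had the smallest p with all livers. *Psme1*, a proteasome activator subunit, was next at 86.6 ± 1.82 and 78.8 ± 7.59 CPM (limma adjusted p = 0.623).

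Beyond the 4 class II members, *H2-DMa* and *H2-DMb1*, the chains of the peptide exchange factor H2-DM, were the other class II genes tested. *H2-DMa* averaged 3.004 ± 1.62 CPM in the control livers and 2.06 ± 0.608 CPM in AAV8-Transgene (log2 fold change -0.32, limma adjusted p = 0.689). Its values in AAV8-Control livers 2 and 4 were 5.10 and 4.34 CPM, and the other 8 livers lay between 1.24 and 2.95 CPM. Without those 2 livers its log2 fold change was 0.088 (limma adjusted p = 0.933). *H2-Oa*, *H2-Ob*, *H2-DMb2* and *H2-Eb2* averaged under 1 CPM and were not tested. The endosomal proteases, which cut antigens and the invariant chain, summed to 2296 and 2064 CPM in those 2 livers, inside the range of 2059 to 2385 CPM of the other 8. Of 7 tested, 5 had a lower and 2 a higher mean in AAV8-Transgene, none with an unadjusted p under 0.05, and the median of their log2 fold changes was -0.03. *Ctss*, cathepsin S, was at 24.3 ± 7.87 and 19.6 ± 2.97 CPM (log2 fold change -0.25, adjusted p = 0.679), with a log2 fold change of -0.05 without both livers.

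Regulators of these genes differed in both directions. Of 11 tested, 6 had a lower and 5 a higher mean, and the median of their log2 fold changes was -0.02. At an unadjusted p under 0.05 by limma, 1 was lower, beside 2.97% of all genes tested. With AAV8-Control livers 2 and 4 left out, none was lower at that level and 1 was higher, *Creb1*. With all livers, 4.99% of all genes tested were higher at that level. *Creb1*, whose protein binds the X2 element, was at 11.4 ± 1.88 and 13.5 ± 2.38 CPM, with a log2 fold change of 0.22, or 0.33 without the 2 livers (unadjusted p = 0.0452, limma adjusted p = 0.868). *Ciita*, the transactivator of class II, lay between 0.220 and 0.923 CPM over the 8 livers other than AAV8-Control 2 and 4, and it was at 0.674 and 0.693 CPM in those 2 livers, on 5 to 21 reads per liver. Of the 12 regulators in the table, 2 were above all of the other 8 livers in both. Of 5 costimulatory genes tested 4 were lower and 1 higher, and *Cd274*, which encodes PD-L1, was at 3.49 ± 1.57 and 2.60 ± 0.460 CPM. Its log2 fold change was -0.26, and -0.0080 without AAV8-Control livers 2 and 4, of which liver 4 held the highest value, 6.01 CPM.

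Of 16 interferon-γ pathway genes tested, 14 had a lower and 2 a higher mean in AAV8-Transgene, with 3 lower at an unadjusted p under 0.05, beside 2.97% of all genes tested, and none at an adjusted p under 0.05. A lower mean alone was found in 44.1% of all genes. Without AAV8-Control livers 2 and 4, 10 were lower, 1 of them at an unadjusted p under 0.05, and 6 higher, and their median log2 fold change went from -0.27 to -0.04. *Cxcl9*, a T cell-attracting chemokine, had the largest difference of the list, averaging 36.2 ± 36.3 CPM in the control livers and 7.32 ± 2.23 CPM in AAV8-Transgene (log2 fold change -1.66, standard error 0.519, limma adjusted p = 0.617, two-sided exact permutation p = 0.0238). Its values in AAV8-Control livers 2 and 4 were 46.4 and 95.2 CPM, beside 4.64 to 19.96 CPM in the other 8 livers. Without them its log2 fold change was -0.72 (adjusted p = 0.868). *Igtp*, an interferon-induced GTPase, was at 39.2 and 75.6 CPM in those 2 livers and between 18.7 and 28.0 CPM in the others. *Iigp1*, the most abundant of the list, was at 165.9 and 217.6 CPM there and between 86.9 and 125.4 CPM elsewhere. *Ifng* itself had at most 2 reads in any library. Liver 4 was the higher of the pair in *Cxcl9*, *Igtp* and *Iigp1*, and liver 2 in the class II genes.

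Markers of immune cells were examined beside the class II genes in each liver. The first list is of T and NK cells, which are not among the main class II cells named above. The 15 T and NK cell markers all averaged under 1 CPM, and none was at 0 in every library. Their sum was 8.57 CPM in AAV8-Control liver 2 and 7.87 CPM in liver 4, and between 1.59 and 2.73 CPM in the other 8 livers of both groups. *Cd8a*, a chain of the CD8 coreceptor, was at 0.578 and 0.547 CPM in those 2 livers and at 0 to 0.113 CPM in the others, on at most 15 reads. *Gzmb*, granzyme B, was at 1.54 and 2.005 CPM there and between 0.0837 and 0.242 CPM elsewhere. Of the 15 markers 11 were above all of the other 8 livers in both, and 4 were not. *Cd3e*, a chain of the T cell receptor complex, was at 0.433 and 0.364 CPM in the 2 livers, inside the 0.0967 to 0.554 CPM of the others, and averaged 0.316 ± 0.153 CPM in the controls and 0.343 ± 0.170 CPM in AAV8-Transgene. The summed level of the list was thus high in the same 2 control livers as class II and *Cxcl9*, and any link of these cells to the class II difference was not tested.

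The marker lists of the cells known to carry class II did not all follow that pattern. The 13 Kupffer cell and macrophage markers summed to 457.1 CPM in AAV8-Control liver 2, the highest of the 10, and to 274.5 CPM in liver 4, inside the range of 221.9 to 402.7 CPM of the other 8. Of these 13 markers 12 had a lower and 1 a higher mean in AAV8-Transgene, none at an unadjusted p under 0.05, and their log2 fold changes had a median of -0.12, which was -0.06 without AAV8-Control livers 2 and 4. *Lyz2* was at 31.7 ± 9.05 and 26.2 ± 3.69 CPM and *C1qb* at 35.9 ± 11.2 and 31.2 ± 5.83 CPM, with log2 fold changes of -0.23 and -0.17, or -0.09 and -0.05 without the 2 livers. The 9 B cell markers summed to 3.18 CPM in AAV8-Control liver 2 and to 1.35 CPM in liver 4, beside 0.702 to 2.13 CPM in the other 8, on 17 to 66 reads in all, and each averaged under 1 CPM. Of the 12 dendritic cell markers 9 averaged under 1 CPM, and their sum was 14.9 and 11.7 CPM in the 2 livers and 8.12 to 13.3 CPM in the other 8. *Itgax*, which encodes CD11c, was at 1.49 and 0.838 CPM in the 2 livers and between 0.248 and 1.004 CPM elsewhere. *Clec9a*, a marker of cross-presenting dendritic cells, was at 1.73 and 2.15 CPM in the 2 livers, above the 0.761 to 1.65 CPM of the other 8, and its mean was 1.36 ± 0.573 CPM in the controls beside 1.44 ± 0.267 CPM in AAV8-Transgene. The 7 neutrophil and monocyte markers in the table summed to 6.84 and 5.94 CPM in the 2 livers, above the 2.52 to 5.79 CPM of the other 8, on 57 to 205 reads in all. The part of any of these cells in the class II levels was not tested.

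**Figure D5:**
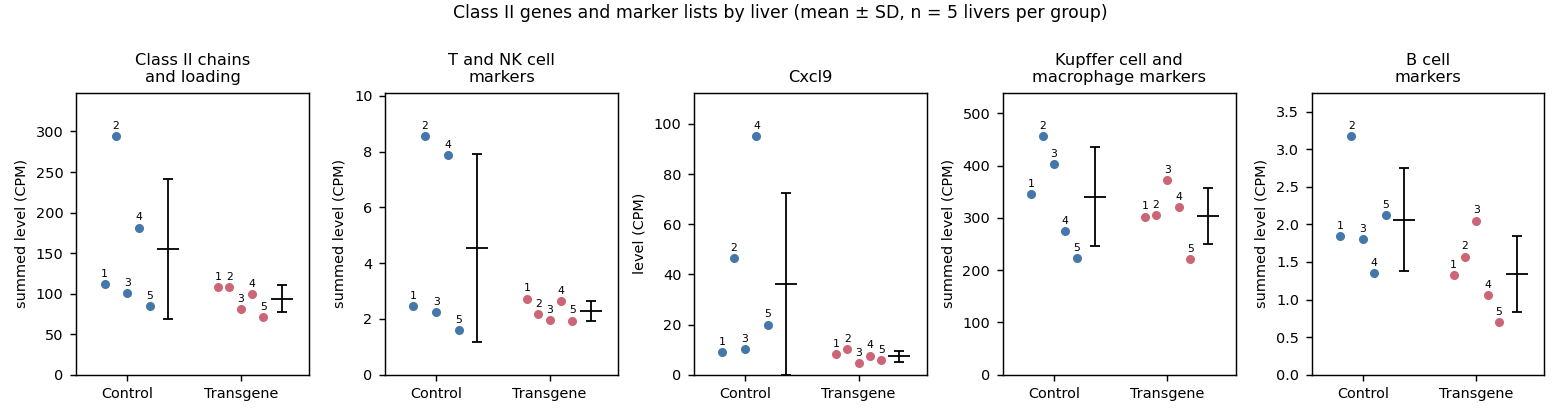
Summed CPM of the class II list and of the T and NK cell, Kupffer cell and macrophage, and B cell marker lists, and the CPM of *Cxcl9*, with a point for each liver labelled by its replicate number and the mean ± SD of 5 livers beside the points. AAV8-Control livers 2 and 4 lie above the other 8 in class II, T and NK cell markers and *Cxcl9*, while in the macrophage and B cell markers liver 2 alone is the highest.

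Markers of the other liver cells differed in both directions. Of 9 hepatocyte markers tested 6 were higher and 3 lower in AAV8-Transgene, with 3 higher at an unadjusted p under 0.05, where 4.99% of all genes tested were higher at that level. When AAV8-Control livers 2 and 4 were left out, 1 of the 9 was higher at that level. *Ass1*, a urea cycle enzyme, was at 1087 ± 188 and 1338 ± 92.1 CPM, and *Hnf4a*, a transcription factor that maintains hepatocyte identity, at 618 ± 67.1 and 726 ± 87.2 CPM, both with a limma adjusted p of 0.617. Their log2 fold changes were 0.31 and 0.23, and 0.27 and 0.19 without the 2 livers. The summed hepatocyte markers lay between 103152 and 138781 CPM in AAV8-Control and between 110747 and 128282 CPM in AAV8-Transgene. Median log2 fold changes were 0.05 over 8 sinusoidal endothelial, 0.02 over 7 stellate cell and -0.06 over 4 cholangiocyte markers tested, and -0.24 over the 2 neutrophil and monocyte markers tested. Without AAV8-Control livers 2 and 4 the endothelial median was -0.12, with 8 of 8 lower, the stellate cell median was 0.10, with 6 higher and 1 lower, and the cholangiocyte median was 0.12. Of the neutrophil and monocyte markers 1 was then tested, at -0.06.

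The genes whose levels followed the members most closely over the 10 livers were sought among all genes tested, by Pearson's r on log2(CPM + 1). This is a description over 10 libraries that share the 2 high control livers. The mean of the class II genes was most like *H2-DMa* (r = 0.93), *Sh3bgrl3* (0.92), *Uba7* (0.92), *Cd52* (0.92) and *Themis2* (0.91). *Uba7* encodes the activating enzyme for ISG15, and *Cd52* a surface glycopeptide of lymphocytes. The mean of *H2-K1*, *H2-D1*, *B2m*, *Tap1* and *Tap2* was most like *Lsp1* (0.95), a leukocyte protein, followed by *Psmb8* (0.95), *Isg15* (0.94), *H2-Q7* (0.94) and *Themis2* (0.94). *Psmb8* encodes a subunit of the immunoproteasome, averaged 10.8 ± 3.26 CPM in the control livers and 9.27 ± 1.82 CPM in AAV8-Transgene, and reached 15.4 and 13.2 CPM in AAV8-Control livers 2 and 4. *H2-Q10* was most like another set, *Kptn* (0.98), *Psmd7* (0.96), *Sod1* (0.96), *Tha1* (0.95) and *Tbcb* (0.94).

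Some class I values are less certain than others because reads of similar genes are hard to assign. Of all 50-base stretches in the exons of *H2-Q10*, 19.1% occur in another gene, mainly *H2-Q7*, and the share was 12.8% for *H2-D1*, 9.63% for *H2-K1*, 11.6% for *Tap2* and 3.33% for *Tap1*, for the TAP genes partly in genes that overlap them. For *B2m*, *H2-Ab1*, *H2-Eb1* and *Cd74* it was 0%. *H2-D1* stands on a pair of lines with the same values under different gene identifiers, and it was used once. The MHC differs in sequence between mouse strains, and the strain background of these *db/db* mice is not given in the sources used here, so its effect on alignment to the reference genome was not tested.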

How the data were processed

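RNA-seq libraries of 10 *db/db* livers were used, 5 with each virus, grouped by the labels, which give no batch or date. The labels also carry text on cultured hepatocytes and adenovirus, and the liver description was followed. Labels separate the samples without saying that each is another mouse, so p-values measure the spread between these samples. Poly-A RNA was sequenced in single reads of 50 bases. The authors aligned them with STAR 2.0.4b to GRCm38.p2 (Ensembl release 76), counted unique reads on genes with featureCounts 1.4.5 and deposited CPM. Strand-specific counting is not given in the sources used here. The table holds 15236 lines for 15126 genes. Whole reads were recovered from 100% of values, within 0.1 read.

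The 11027 genes averaging 1 CPM or more were tested by limma 3.58.1 (trended prior, Benjamini-Hochberg) in R 4.3.3, on log2(CPM + 1). On this scale changes of low genes are understated. Single genes also had two-sided exact permutation tests over 252 assignments. Lists were described by counts and medians. The vector's gene and a listed regulator are not reported here. Members and lists were chosen with earlier results of these data known. Named genes were the members and the 5 most like each member group. The rule for lists, the 2 tested genes with the smallest p and the most abundant, selected 43 genes, of which 23 are described. Of the others, 19 are named here only, with log2 fold changes of -0.36 to 0.45 and adjusted p of 0.617 or more by limma: *Raet1e*, *Azgp1*, *Ctsl*, *Ctsb*, *Irf2*, *Cd48*, *Icam1*, *Cd5l*, *Irf8*, *Csf3r*, *Fcgr1*, *Stab2*, *Oit3*, *Rgs5*, *Lrat*, *Dcn*, *Sox9*, *Krt19* and *Spp1*. *H2-DMb1*, *Cd8a*, *Gzmb*, *Ciita*, *Itgax*, *Cd3e*, *Ifng* and the untested class II genes were named after their values were seen. Alternatives were a pseudocount of 0.1, no filter, at least 10 reads in every library, TMM, DESeq2 size factors, edgeR 4.0.16, DESeq2 1.42.0, a replicate block and each library left out. Leaving out AAV8-Control livers 2 and 4 was added after the data were seen, and these livers were chosen for their high class II values. The fits were tested on simulated data. No pair of libraries was a duplicate.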

Additional observations from a re-analysis of the deposited data

Results flagged for a closer look

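Within groups of 5 livers, a liver was marked where its gap to the nearest other was over 0.71 of the group's range (Dixon's test), and 3 of the 20 groups of member values held such a liver. Chance marks about 1 in 20 groups. *H2-K1* in AAV8-Control liver 2, at 1072 CPM, was far above the other controls. *Tap2* in the same liver, at 11.3 CPM, was likewise apart. *H2-Q10* in AAV8-Control liver 4, at 1551 CPM, was far below the other controls, whose lowest was 1922 CPM. The class II values of livers 2 and 4 were not marked, as each of these high livers narrows the gap of the other.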

How the results depend on the processing

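Over the 19 alternatives, no adjusted p of a member was under 0.05, and the lowest of a setting ranged from 0.341 to 0.970. DESeq2 gave no adjusted p for 5 members. Of the 185 combinations of member and alternative with an adjusted p, 180 kept their direction and their side of that threshold and 5 changed sign. The number of members with an unadjusted p under 0.05, which was 1, was 0 without the filter, 5 with edgeR, 4 with DESeq2, 5 with the replicate block, 0 to 5 with single livers left out and 0 without AAV8-Control livers 2 and 4. It was 0 without AAV8-Control liver 2, AAV8-Transgene liver 3 or AAV8-Transgene liver 5, 4 without AAV8-Control liver 3 and 5 without AAV8-Control liver 5. The cause was not tested, and the share of all genes at that level is not given for these alternatives. The median of the class II genes was -0.30 without AAV8-Control liver 2, -0.48 without liver 4 and -0.07 without both. Same-numbered livers deviated together with correlations of 0.08 to 0.31, and 4 of 5 numbers matched best with their own, which is only a hint that numbers pair the livers, so the block was kept as an alternative.

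With single livers left out, the log2 fold change of *H2-D1* ranged from -0.12 to 0.025 and was positive without AAV8-Control liver 2 (0.019), AAV8-Transgene liver 1 (0.010) or AAV8-Transgene liver 5 (0.025). That of *Tap2* ranged from -0.094 to 0.013 and was positive without AAV8-Control liver 2. That of *H2-T23* ranged from -0.094 to 0.017 and was positive without AAV8-Control liver 2 (0.0072) or AAV8-Transgene liver 5, and that of *H2-Q7* ranged from -0.30 to 0.0014, positive without AAV8-Control liver 2. Without both AAV8-Control livers 2 and 4 the values were positive for *H2-D1* (0.057), *H2-T23* (0.037), *Psmb8* (0.092), *H2-DMa* (0.088), *Iigp1* (0.044), *Uba7* (0.031), *Sh3bgrl3* (0.061) and *H2-Q7* (0.11). Depth limits the markers under 1 CPM, which rest on few reads.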
